A study of Mus musculus with 24 samples.

Results

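The genes of 8 kidney transcription factors that set up or maintain the segments of the nephron, Hnf4a, Hnf4g, Pax2, Pax8, Wt1, Tfap2b, Tfcp2l1 and Foxi1, were examined for m6A peaks in their mRNA. Members were chosen by gene name, and their peaks were all listed peaks that overlapped an exon of the gene on its own strand. Peaks were listed for 4 of the 8 genes, against 7774 of 21951 annotated protein-coding genes (35.4%). The 4 genes held 35 of the 91013 listed peaks, which fell into 7 exon loci. A locus joins the peaks of different kidneys that share at least 1 base on one strand. Tfap2b held 18 of them, Foxi1 9, Pax2 5 and Pax8 3, and Hnf4a, Hnf4g, Wt1 and Tfcp2l1 had no listed peak in the 12 lists analysed here.

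N6-methyladenosine (m6A) is a methylated base that a nuclear writer complex places on mRNA while it is being made, and that reader proteins use to steer splicing, export, translation and decay. It is common in long internal exons and in last exons near the stop codon, and GGACT is one of the 5-letter words in which the methylated A is found most often. Messages of developmental transcription factors are frequent m6A targets in embryonic stem cells. Among the genes examined, the nuclear receptor Hnf4a and its relative Hnf4g act in the proximal tubule, the paired-box factors Pax2 and Pax8 direct formation of the nephron from its earliest stages, and the zinc finger factor Wt1 is needed in podocytes. Tfap2b acts in the distal nephron, Tfcp2l1 in the collecting duct, and the forkhead factor Foxi1 in intercalated cells, the acid and base secreting cells of the collecting duct.

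MeRIP-seq was run on whole kidneys of C57BL/6 mice, all males of 8 weeks. In this assay an antibody enriches methylated RNA fragments before sequencing. Vehicle was given by daily intraperitoneal injection for 14 days to control mice and to the injury group (IG), and berberine, a plant alkaloid, at 20 mg/kg per day to the treatment group (TG), with 4 kidneys from 4 mice in each. IG and TG mice then received the nephrotoxic drug cisplatin at 20 mg/kg intravenously and control mice its vehicle, and kidneys were taken 72 h later. IvC stands for IG against control, TvI for TG against IG, and TvC, which shares kidneys with both, for TG against control. The score of a peak is 10 times the negative log10 of its p-value, a strength of evidence and not a level of methylation, and its median over all lists was 71.3. Control lists held 8531 to 9579 peaks, IG lists 6745 to 8357 and TG lists 5901 to 6753. The lists give no read counts, the depth is unknown, and in whole kidney fewer cells of a type and less RNA per cell cannot be told apart. Of the 6 kidney tubule markers checked, Slc12a1 had a peak in IG and control lists, and Lrp2, Slc34a1, Umod, Slc12a3 and Aqp2 had none. Havcr1, an injury marker of the tubule, had 0, 6 and 6 peaks in control, IG and TG lists. Lcn2 and Krt20, the other injury markers checked, had none in any list.

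The 7 loci hold 12 GGACT words, and they are shown because the loci differ in how many they hold and where. Sequences are GRCm38, 5′ to 3′ on the strand of the gene, with 10 bases to each side and the GGACT word in capitals. In Tfap2b (chromosome 1, plus strand) both words of an alternative first exon, chr1:19212122-19212146 and chr1:19212321-19212345, both words of coding exon 2, chr1:19214048-19214072 and chr1:19214276-19214300, and both words of the last exon, chr1:19235715-19235739 and chr1:19236229-19236253, were read.
Tfap2b alternative exon 1, first site: gggtggaagaGGACTgtttctggag
Tfap2b alternative exon 1, second site: cttctctgctGGACTccttgattat
Tfap2b exon 2, first site: cgccatcatcGGACTtccagccacc
Tfap2b exon 2, second site: atccccgaagGGACTaccactctgt
Tfap2b exon 7, first site: ggctctttggGGACTggatgtttta
Tfap2b exon 7, second site: ccagtagtctGGACTctcagtattc

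Foxi1 (chromosome 11, minus strand) held 3 words in its last exon, at chr11:34206043-34206067 and chr11:34205726-34205750 in coding sequence and at chr11:34205011-34205035 in the 3′ UTR. Pax2 (chromosome 19, plus strand) held 2 in the 3′ UTR, at chr19:44836436-44836460 and chr19:44836572-44836596, and Pax8 (chromosome 2, minus strand) held 1 in the 3′ UTR, at chr2:24421492-24421516.
Foxi1 exon 2, first site: gggaattactGGACTctggacccta
Foxi1 exon 2, second site: ggccacaccaGGACTgagctcagag
Foxi1 exon 2, 3′ UTR site: ggggatggatGGACTggatcagaag
Pax2 exon 11, first site: gctaaggaaaGGACTttgtgctgaa
Pax2 exon 11, second site: cgcaagggtcGGACTcgagggacag
Pax8 exon 12: agaatcaggaGGACTtggcctgaga

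The words were densest in the short upstream exons of Tfap2b, with 5.41 per kb in alternative exon 1 and 4.07 per kb in exon 2, against 0.754 per kb in exon 7. Windows of 300 bases around the middle of each locus held GGACT on the strand of the gene in 26.2% of all 16815 loci. Both upstream windows of Tfap2b held 2 such words, and the windows of the other 5 member loci held 0. A word is a match of letters and not a mapped methylated base.

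**Figure D1:**
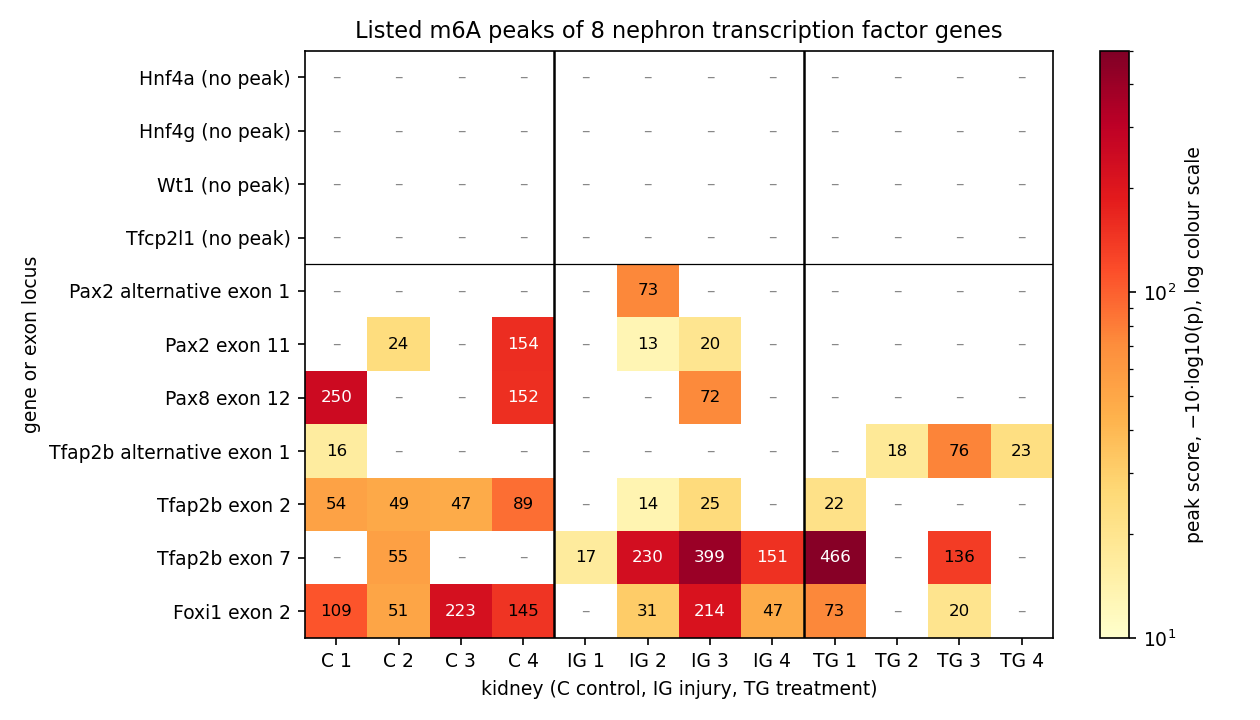
Listed m6A peaks of the 8 genes, with loci in rows and the 12 kidneys in columns (C control, IG injury, TG treatment). Colour, on a log scale, and the printed number give the peak score (10 times the negative log10 of p), and a dash marks a kidney with no listed peak. Tfap2b has a peak in every kidney but in different exons, and no TG kidney has a peak of Pax2 or Pax8.

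Tfap2b was the one member with a peak in all 12 kidneys. The gene lies at chr1:19208914-19238576. The lists of each group held 6 of its peaks, a mean of 1.5 ± 0.577 peaks per kidney (SD, n = 4) in each group, so that the difference was 0 in IvC, TvI and TvC. The same number of peaks in both groups was found for 17.1% of genes in IvC, 24.1% in TvI and 15.2% in TvC. The difference was −0.5, 0.75 and 0.25 peaks per kidney in IvC, TvI and TvC when each list was shortened to its 5901 strongest peaks, 0.5, 0 and 0.5 with scores of at least 71.3, and 0.25, −0.75 and −0.5 when exons of the longest-coding transcript alone were counted. None of these was under 0.05 in the exact permutation test. By exon, with no locus passing its test, exon 2 was listed in 4 control, 2 IG and 1 TG kidneys, exon 7 in 1, 4 and 2, and alternative exon 1 in 1, 0 and 3. No kidney was listed in all 3 exons.

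The peak in exon 2 covered chr1:19213951-19214442 with the same ends in all 7 kidneys that had it. The bounds were those of exon 2 of a retained-intron transcript, Tfap2b-205, and the coding exon of the protein-coding transcripts is its first 459 bases. Scores were 53.69, 48.99, 47.19 and 89.22 in the 4 controls (59.8 ± 19.8, SD, n = 4), 13.54 and 24.74 in IG 2 and IG 3, and 21.56 in TG 1. All 4 control scores lay above the 3 scores of the cisplatin-treated kidneys, and IG 1, IG 4, TG 2, TG 3 and TG 4 had no listed peak. The difference of 3 kidneys in TvC gave p = 0.143 by Fisher's exact test (two-sided) and an adjusted p of 0.967 by Benjamini-Hochberg over all loci, and the difference of 2 kidneys in IvC gave p = 0.429 by the same exact test. A difference of at least 3 kidneys toward fewer was found at 12% of the 15169 loci tested in TvC. The listing became 4 of 4 against 0 of 4 (unadjusted p = 0.0286, the same exact test) in IvC when each list was shortened to its 5901 strongest peaks. Without TG 1, the one TG kidney with this peak, the listing in TvC was all 4 controls against none of the remaining TG kidneys (unadjusted p = 0.0286, the same exact test). With scores of at least 71.3 it was 1, 0 and 0 kidneys (p = 1 in IvC and in TvC by the same exact test).

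Exon 7 is the last exon, 4527 bases long, with the stop codon and the 3′ UTR. Its peaks began at the first base of the exon, chr1:19234050, in all 7 kidneys that had one, and ended at different places within it. The score was 54.76 in control 2, 16.86, 230.13, 399.47 and 150.52 in IG 1 to 4 (199 ± 160, SD, n = 4), 466 in TG 1 and 136.2 in TG 3. Controls 1, 3 and 4 and TG 2 and TG 4 had no listed peak, and the single control score lay above that of IG 1 and below those of the other IG kidneys. TG 1 had the highest score of any member peak. The difference of 3 kidneys in IvC gave p = 0.143 by Fisher's exact test (two-sided; adjusted p = 1), and a difference of at least 3 kidneys toward more was found at 3.82% of the 16072 loci tested. Without control 2 the unadjusted p of the same exact test was 0.0286, and with lists of equal length 1 control and 3 IG kidneys were listed (p = 0.486).

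The peaks of exon 7 also differed in length. They spanned 830 to 1158 bases in the 4 IG kidneys, 1279 and 1503 bases in TG 1 and TG 3, and 2651 bases in control 2. The first 830 bases, chr1:19234050-19234879, were common to all 7 peaks and hold the 295 coding bases of the exon and the stop codon. They hold no GGACT. Both GGACT words of the locus lay inside the peak of control 2 and outside the other 6. Related words stood in the coding stretch of the common part, GGACC once and GGACA at 2 places, of which the one at chr1:19234241-19234265 is shown.
Tfap2b exon 7, common part: tcaaaggcatGGACAagatgttctt

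Alternative exon 1, chr1:19212054-19212423, is the first exon of transcript Tfap2b-202, and is 5′ UTR but for 27 coding bases that begin with the start codon. Listed peaks had the bounds of this exon in the 4 kidneys that had one. The score was 16.44 in control 1, 18.13 in TG 2, 75.71 in TG 3 and 23.09 in TG 4, and no IG kidney had a listed peak. Of these 4 scores, the one of TG 3 was above the median of all lists and the other 3 were below it. The difference of 3 kidneys in TvI gave p = 0.143 by Fisher's exact test (two-sided; adjusted p = 1), and a difference of at least 3 kidneys toward more was found at 1.28% of the 13367 loci tested. Without TG 1, the one TG kidney with no peak here, the unadjusted p of the same exact test was 0.0286, and with scores of at least 71.3 the listing was 0 IG and 1 TG kidneys (p = 1). The difference of 2 kidneys in TvC gave p = 0.486 by the same exact test. A site of this region is among those that the study picked from these same kidneys, so its direction is not independent evidence.

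**Figure D2:**
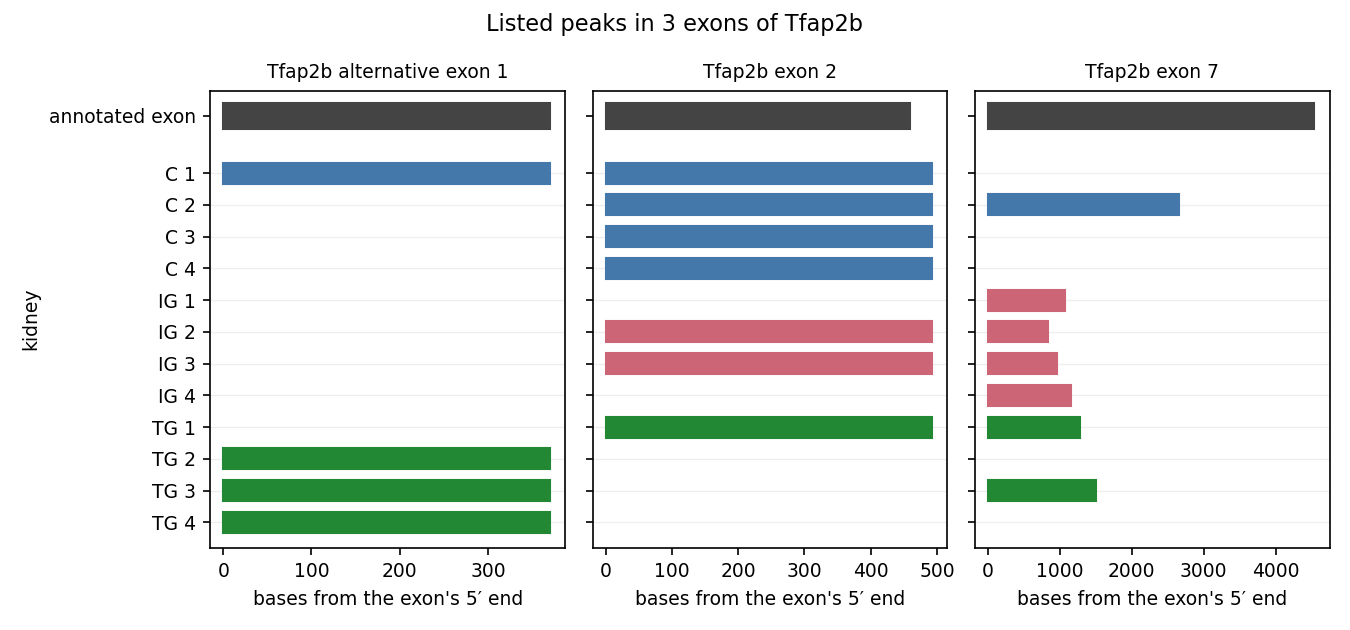
Extent of the listed peaks in 3 exons of Tfap2b. Each bar runs over the bases that a peak covered, counted from the 5′ end of the exon on the x axis (bases), with 1 row per kidney (C control, IG injury, TG treatment). Grey bars give the annotated exon of the protein-coding transcripts. Peaks of exon 7 share their start and reach 830 to 2651 bases into the exon, and those of exon 2 run to the end of a retained-intron exon of 492 bases.

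A gene in which 1 locus was listed in at least 2 kidneys more and another in at least 2 fewer in the same comparison, a pattern defined after the values of Tfap2b were seen, is described here without a test. Tfap2b had it in IvC (exon 7 in 3 kidneys more, exon 2 in 2 fewer), in TvI (alternative exon 1 in 3 more, exon 7 in 2 fewer) and in TvC (alternative exon 1 in 2 more, exon 2 in 3 fewer). Among genes with at least 2 loci, 8.12% had it in IvC, 4.5% in TvI and 6.04% in TvC. It was met in all 3 comparisons by 12 of 3691 genes (0.325%), Tfap2b among them, and the comparisons share kidneys. Tfap2b had it in IvC and TvC but not in TvI with lists of equal length, and in no comparison with scores of at least 71.3. With exons of the longest-coding transcript alone, which leave out alternative exon 1, Tfap2b had it in IvC only.

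Foxi1 (chr11:34204338-34208089) had peaks in its last exon, the second of 2, at chr11:34204338-34206072, where 560 coding bases, the stop codon and the 3′ UTR lie. The score was 109.07, 50.87, 223.11 and 145.12 in the 4 controls (132 ± 72.1, SD, n = 4), 31.29, 214.05 and 46.82 in IG 2, IG 3 and IG 4, and 73.37 and 19.93 in TG 1 and TG 3. The ranges overlapped between all 3 groups, with IG 3 close to the highest control. Peaks covered the whole exon except in IG 2, where the peak was 1672 bases long against 1735. The listing in 4, 3 and 2 kidneys gave p = 1 in IvC and in TvI and p = 0.429 in TvC by Fisher's exact test (two-sided), with adjusted p = 1 in each. A difference of at least 2 kidneys toward fewer, as Foxi1 had in TvC, was found at 26.6% of loci.

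The paired-box genes were listed in fewer kidneys. Pax8 (chr2:24420560-24475599) had peaks in its last exon, the 12th, at chr2:24420551-24421624, with scores of 250.21 in control 1, 151.85 in control 4 and 71.9 in IG 3. These bounds reach 9 bases beyond the exon in the annotation used here. Pax2 (chr19:44756045-44837871) had peaks over the whole of its last exon, the 11th, at chr19:44835951-44837871, with scores of 24.11 in control 2, 154.18 in control 4, 13.03 in IG 2 and 19.66 in IG 3. The lowest score in all lists was 13.02, so the Pax2 peak of IG 2 stood at the edge of what was listed. IG 2 also held the sole peak of Pax2 in another exon, the first exon of transcript Pax2-202, with a score of 73.24 at chr19:44759916-44760720, upstream of the start codon of that transcript.

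Neither Pax2 nor Pax8 had a peak in a TG kidney. Per kidney, controls held 0.5 ± 0.577, IG kidneys 0.75 ± 0.957 and TG kidneys 0 peaks of Pax2 (SD, n = 4 each). With lists of equal length, and with scores of at least 71.3, the Pax2 difference was −0.25 peaks per kidney in TvI and in TvC, and its last exon was then listed in 1, 0 and 0 kidneys. The means for Pax8 were 0.5 ± 0.577, 0.25 ± 0.5 and 0 in the same order. The exact permutation test on the number of peaks gave p = 0.429 for Pax2 in TvI and in TvC and for Pax8 in TvC, and p = 1 for their other comparisons (two-sided). Over all genes, p under 0.05 toward more and toward fewer peaks was reached by 2.26% and 4.89% of 7526 genes in IvC, 0.27% and 0.87% of 6666 in TvI, and 1.8% and 7.35% of 7242 in TvC, and no member was among them. A kidney with no listed peak can have one under the calling threshold.

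**Figure D3:**
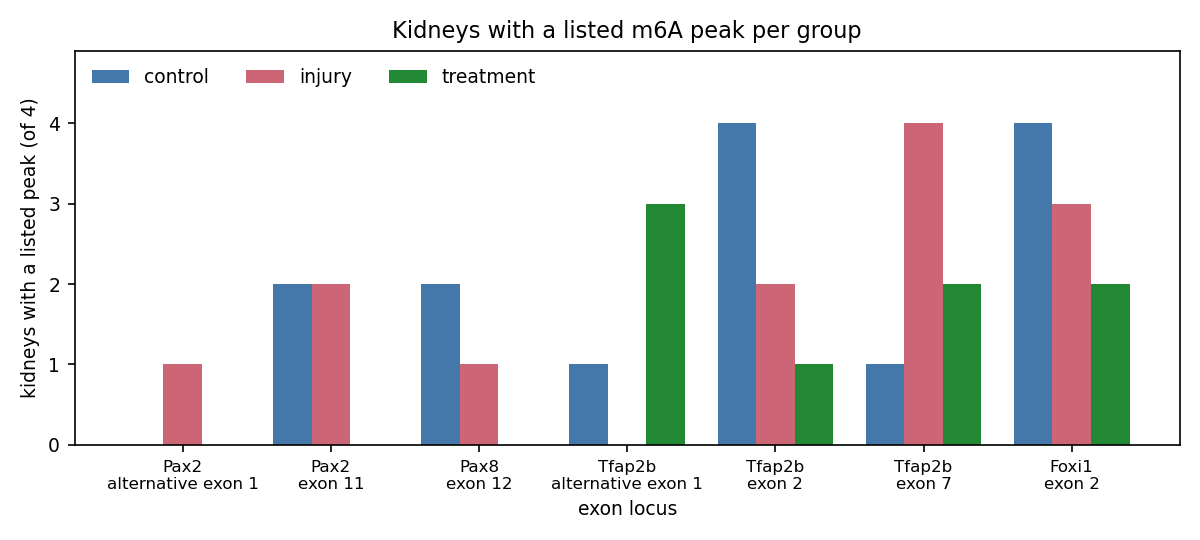
Number of kidneys, of 4 per group, with a listed peak at each of the 7 member loci. Bars start at 0, and a missing bar stands for 0 kidneys. Exon 2 of Tfap2b and exon 2 of Foxi1 reach 4 in controls, exon 7 of Tfap2b reaches 4 in IG, and the highest value in TG is 3, at alternative exon 1 of Tfap2b.

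The member peaks were of middling strength and were shared unevenly between the kidneys of a group. Scores ran from 13.03 to 466 with a median of 54.76, and 18 of the 35 lay below the median of their own list. Controls held 4, 4, 2 and 4 member peaks, IG kidneys 1, 5, 5 and 2, and TG kidneys 3, 1, 3 and 1. The single member peak of IG 1 was in exon 7 of Tfap2b, and that of both TG 2 and TG 4 was in alternative exon 1 of Tfap2b. Means were 3.5 ± 1, 3.25 ± 2.06 and 2 ± 1.15 peaks per kidney (SD, n = 4), or 3.92 ± 1.15, 4.27 ± 2.51 and 3.18 ± 1.91 per 10000 listed peaks. Per listed peak, the groups thus lay within the spread of the kidneys of each other. Member genes with a peak in 2 or more kidneys numbered 4 in controls, 3 in IG and 2 in TG, of 8. Over all 21951 genes the numbers were 5351 (24.4%), 4793 (21.8%) and 4166 (19%), also lower in the groups with shorter lists. With each list shortened to its 5901 strongest peaks they numbered 3, 2 and 2.

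No member locus was listed in 4 of 4 kidneys of one group and 0 of 4 of the other, the sole outcome under 0.05 in Fisher's exact test at this size, with p = 0.0286. Over all loci this outcome was met toward more in 1.35% and toward fewer in 2.73% of loci in IvC, 0.217% and 0.449% in TvI, and 1% and 3.73% in TvC. Of the member loci, 4 were listed in fewer and 2 in more kidneys in IvC, 6 in fewer and 1 in more in TvI, and 4 in fewer and 2 in more in TvC. A difference of 3 kidneys was reached toward more by 1 member locus in IvC and 1 in TvI and toward fewer by 1 in TvC. Over all loci, at least 3 kidneys more and at least 3 fewer were found at 3.82% and 8.95% in IvC, 1.28% and 3.21% in TvI, and 2.83% and 12% in TvC. A difference of at least 2 kidneys toward more was found at 1 member locus in each comparison, against 9.51%, 5.57% and 6.82% of all loci. The same difference toward fewer was found at 1, 2 and 4 member loci in IvC, TvI and TvC, against 21.3%, 13.4% and 26.6% of all loci. The median difference was −1, −1 and −2 kidneys for members and 0, 0 and −1 kidneys over all loci. Over all loci, more and fewer kidneys were found at 26.3% and 46.3% in IvC, 22.6% and 43.4% in TvI, and 18.8% and 54.9% in TvC, where the IG and TG lists were the shorter ones. The adjusted p was not under 0.05 at any locus in any comparison, with 655, 89 and 718 loci at an unadjusted p under 0.05 by the exact test.

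The listed exons of the members were mostly last exons, and long ones. In the transcript with the longest coding sequence of each of the 8 genes, 5 exons were listed in a kidney, with a median length of 1735 bases (459 to 4527), and 72 were not, with a median of 122 bases. The 5 were the last exons of Pax2, Pax8, Tfap2b and Foxi1 and exon 2 of Tfap2b, which at 459 bases was the longest internal exon of the 8 genes. In all genes with a peak, 56.7% of last exons, 13.4% of internal exons and 19.2% of first exons were listed, and the median length was 229 bases for listed and 129 bases for other exons. Of the member genes with a peak, no internal exon shorter than this one was listed.

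The genes with no listed peak had long last exons too. They measured 2957 bases in Hnf4a (chr2:163506808-163572910), 998 in Hnf4g (chr3:3508030-3658052), 1390 in Wt1 (chr2:105126529-105173616) and 7781 in Tfcp2l1 (chr1:118627945-118685168), which is the longest exon of all 8 genes. Internal exons of these 4 genes were 49 to 237 bases long. Their spliced transcripts also held GGACT words, at 0.689 per kb in Hnf4a, 0.859 in Hnf4g, 1.62 in Wt1 and 1.73 in Tfcp2l1. The genes with peaks had 0.682 in Tfap2b, 0.781 in Pax8, 0.969 in Pax2 and 1.27 in Foxi1, and the medians over annotated genes were 1.04 with a peak and 1.00 without. Neither the length of the last exon nor the density of this word separated the 4 listed members from the 4 others. No expression values were analysed, so low mRNA and low methylation cannot be told apart for the genes without a peak.

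**Figure D4:**
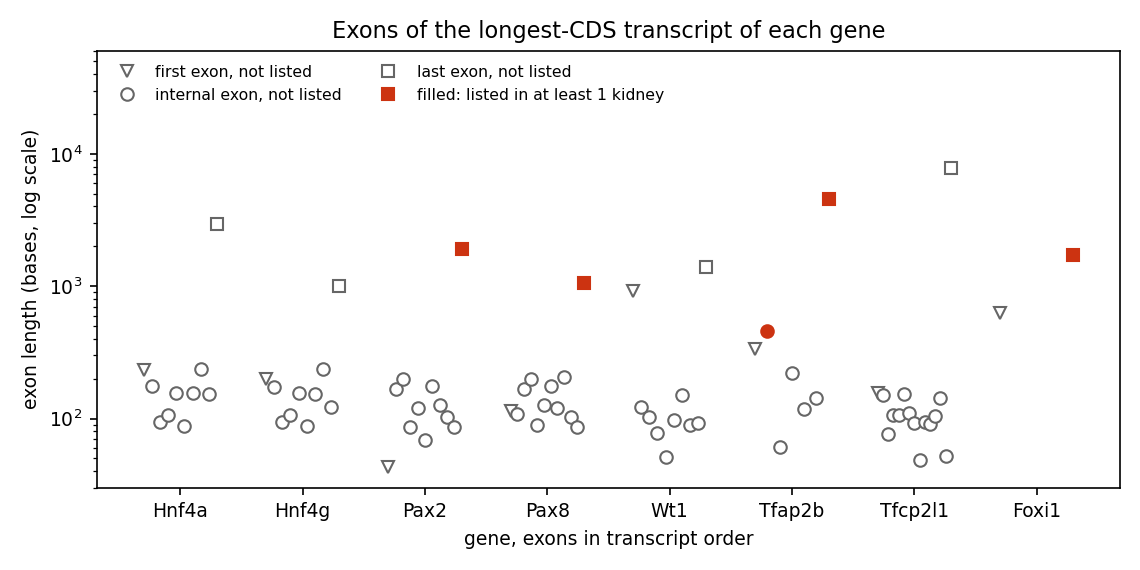
Length in bases (y axis, log scale) of each exon of the longest-coding transcript of the 8 genes, in transcript order from left to right within a gene. Triangles are first, circles internal and squares last exons, and filled symbols were listed in at least 1 kidney. The filled symbols are 4 last exons and exon 2 of Tfap2b, and 4 last exons of 998 to 7781 bases are open.

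Loci of other genes with the kidney by kidney listing of the Tfap2b loci were counted as a description. A locus listed in the same 7 of 12 kidneys as exon 2 was found at 9 places, of which Fbxl18 (mean score 43.9), Epn3 (38.3) and Ciz1 (60.7) were nearest to the mean score of 42.7 of exon 2. The 7 kidneys of exon 7 were shared by 2 loci, in Cep162 (34.5) and Ap3d1 (2468), against 207.7 for exon 7. No locus shared the 4 kidneys of alternative exon 1.

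Of 31 other transcription factor genes of the nephron and kidney stroma, 26 had a listed peak, and 21, 20 and 20 had one in at least 2 control, IG and TG kidneys. Their lists held 133, 107 and 101 peaks. Tfap2a, the closest relative of Tfap2b on the list, had 1 locus that was listed in all 12 kidneys, unlike any locus of Tfap2b. Pou3f3, Foxc2, Mecom and Dmrt2 also had a peak in all 12 kidneys. The progenitor genes Six2 and Eya1 and the factors Elf5 and Lmx1b had none.

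The outcome of 4 of 4 against 0 of 4 kidneys was met by 2 of 55 loci of these genes in IvC and 2 of 53 in TvC, all toward fewer and all in Cux1, a homeobox factor, against 2.73% and 3.73% of all loci toward fewer. The locus at chr5:136567178-136567490 was listed in 4 control, 0 IG and 0 TG kidneys, with a control score of 83.5 ± 41.6 (SD, n = 4). Fisher's exact test gave p = 0.0286 for it in both comparisons, with adjusted p = 0.701 in IvC and 0.604 in TvC. Cux1 also had loci at chr5:136392315-136392393 (4, 0 and 1 kidneys, control score 47.3 ± 42.5) and chr5:136272961-136275466 (4, 1 and 0 kidneys, 77.5 ± 70.3). In TvI no locus of the list met the outcome. Osr1 and Tcf21, factors of early kidney mesenchyme and stroma, were listed in 3 control kidneys each, in 0 IG kidneys, and in 0 and 1 TG kidneys. Ppara and Foxd1 had the reverse order, 0, 1 and 3 kidneys, and none of these 4 genes met the outcome.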

How the data were processed

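The authors trimmed reads with Cutadapt 1.9.3, aligned them to mm10 (GRCm38) with HISAT2 2.0.4, ran MACS per kidney and kept what fell on mRNA exons. Many listed peaks start or end at the bounds of an annotated exon. Whether such bounds come from the enrichment or from this step cannot be told from the lists. The deposited score is the negative log10 of the MACS p-value, multiplied by 10, with values from 13.02 upward (a threshold of 0.05 would be 13.0103). The MACS version, threshold and control library are not given in the sources used here, and the input libraries and RNA-seq data were not analysed here. Groups and replicate numbers are from the labels, which name no mouse. That each group had 4 mice is from the methods of the study.

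Peaks were assigned to exons of 21951 protein-coding genes of GENCODE M21 by strand and joined into loci. Listing was compared by Fisher's exact test per locus and numbers of peaks by an exact permutation test over 70 arrangements of 8 kidneys, both with Benjamini-Hochberg adjustment over all loci or genes. Named genes are the 8 members and, from other lists, loci with 4 of 4 against 0 of 4 kidneys (up to 3 per list and comparison) and genes with the same listing as a member locus. Genes named by kidney counts only were chosen after their values were seen. The members and lists were chosen with earlier results of these data known. A planned limma test of scores at loci listed in all 12 kidneys (2417 of 16815) gave no member value, since 0 member loci were among them. Single values of some listed genes are not reported here. Promoter and protein sequences were not used here. Alternatives were equal list lengths, only scores at or above 71.3, other exons, other joining, a block for the replicate number and omission of single kidneys. Deviations of same-numbered kidneys correlated at −0.0211 to 0.0490. Sequences were read with samtools 1.23.1 and pysam 0.24.0, figures drawn with matplotlib 3.10.9, and tests run with scipy 1.17.1 and numpy 2.4.6 in Python 3.11.15.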

Additional observations from a re-analysis of the deposited data

Results flagged for a closer look

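Of 24 values per group that were examined for a kidney lying far from the other 3, 4 had one. Chance flags about 1 in 20 groups of continuous values, but 3 of the 4 are small counts with 3 tied kidneys, in which any single different kidney stands apart, so that this rate does not apply to them. Control 3 held 2 member peaks where the other controls held 4 each. The score at exon 2 of Tfap2b was 89.22 in control 4, against 47.19 to 53.69 in the other controls. IG 3 was the one IG kidney with a Pax8 peak (1 against 0), and IG 1 the one IG kidney without a Foxi1 peak (0 against 1).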

How the results depend on the processing

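The count of member genes listed in 2 or more kidneys (4, 3 and 2 in control, IG and TG) was 2, 1 and 1 both with only peaks scoring no lower than the overall median and when all 4 kidneys were required. Leaving out 1 kidney gave 2 to 4 in controls (2 without control 4) and 1 to 2 in TG (1 without TG 1 or TG 3). The count of 0 loci with 4 of 4 against 0 of 4 kidneys became 1 in IvC with equal list lengths, where exon 2 of Tfap2b stood at 4 of 4 against 0 of 4 (Fisher's exact p = 0.0286), and 1 in each comparison when a difference of 3 kidneys was enough. Leaving out 1 kidney gave 0 to 1 in each: 1 in IvC without control 2 (Tfap2b exon 7), 1 in TvI without TG 1 (alternative exon 1) and 1 in TvC without TG 1 (exon 2). In each of these the kidney left out was the one of its group that differed from the others. The smaller group then had all or none of its remaining kidneys listed. The count of 1 locus with a difference of at least 3 kidneys was 0 to 1 in IvC when 1 kidney was left out (0 without IG 1 or IG 4), and 0 to 2 in TvI (2 without TG 1, 0 without TG 2 or TG 4) and in TvC (2 without TG 1 or TG 3, 0 without control 2, 3 or 4). It was 0 in TvI and TvC with scores at or above the median, 0 in TvI with exons of the longest-coding transcript alone, and 2 in TvC with equal list lengths. The difference in peaks of Pax2 in IvC turned to −0.167 without IG 2 (range −0.167 to 0.5 over single kidneys left out), and that of exon 2 of Tfap2b in TvI turned to 25 percentage points with equal list lengths. Causes were not tested. Of 732 alternative values, 4 passed the threshold where the reported value did not, 2 turned from one sign to the other and 30 counts moved by over 1.5 times, all given here or beside the result. Others moved from or to 0 without passing a test, among them the peaks of Tfap2b. Deviations of same-numbered kidneys correlated at −0.0211 to 0.0490, and 5 of 12 matched their own number best. Whether same-numbered kidneys were handled together is not given by the labels, and these values cannot exclude it. With the replicate number as a block, the count of called loci was 0 in each comparison and the smallest exact p 0.25. Other scales, centring and fits of the score were not run, since 0 member loci were listed in all kidneys. Depth is unknown, and weak peaks near the calling threshold limit every count of kidneys.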

Other observations

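Genes of the cell types in which the members act were listed unevenly. Of 16 proximal tubule genes, the segment of Hnf4a and Hnf4g, 4 had a peak (against 35.4% of all genes), with 1, 7 and 9 peaks in control, IG and TG lists. Most of these were in Slc7a13 (1, 4 and 4 peaks) and Pdzk1 (0, 3 and 2), and Slc22a6 and Slc22a12 had peaks in 1 TG kidney each. Of 10 podocyte genes, the cells of Wt1, 9 had a peak, with 39, 29 and 33 peaks. In Thsd7a a locus at chr6:12313933-12314829 was listed in 0 control, 4 IG and 0 TG kidneys with a score of 77.8 ± 49.9 in IG (SD, n = 4), and in Plce1 a locus at chr19:38716564-38717239 was listed in 0, 0 and 4 with a score of 29.8 ± 10.9 in TG. Adjusted p was 0.701 in IvC, 0.604 in TvC and 1 in TvI by Fisher's exact test with Benjamini-Hochberg adjustment over all loci. Of all loci, 1.35%, 0.217% and 1% met 4 of 4 against 0 of 4 kidneys toward more in IvC, TvI and TvC, and 0.449% toward fewer in TvI.

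Of 12 genes of the thick limb and distal tubule, 6 had a peak (18, 21 and 12 peaks). A locus of the sodium, potassium and chloride transporter Slc12a1 at chr2:125152505-125152633 was listed in 1, 4 and 0 kidneys, with an IG score of 469 ± 288. Fisher's exact test gave p = 0.0286 in TvI, with an adjusted p not under 0.05. Over all loci, 0.449% met this outcome toward fewer in TvI. The study picked a site here from these same kidneys and reported less methylation in IvC and more in TvI. The listing, another measure of the same kidneys and so not independent evidence, ran the other way in both comparisons. The reason was not tested. A locus of the magnesium channel Trpm6 at chr19:18853327-18854468 was listed in 4, 2 and 0 kidneys. In TvC this gave p = 0.0286 by Fisher's exact test, with an adjusted p of 0.604. Over all loci, 3.73% met this outcome toward fewer in TvC. Of 8 principal cell genes, 5 had a peak (14, 12 and 14 peaks), and none of their loci was listed in 4 of 4 against 0 of 4 kidneys. Of 10 intercalated cell genes, the cells of Foxi1, 6 had a peak (16, 22 and 16 peaks). The proton pump subunit Atp6v1b1 had a locus at chr6:83758330-83758810 in 0 control, 4 IG and 4 TG kidneys, with scores of 1002 ± 717 in IG and 504 ± 416 in TG. Fisher's exact test gave p = 0.0286 in IvC and in TvC, with adjusted p = 0.701 and 0.604. Over all loci, 1.35% in IvC and 1% in TvC met this outcome toward more. Of the other intercalated cell genes, Hepacam2 was listed in 3, 0 and 0 kidneys, and Atp6v1g3, another proton pump subunit, had 12 peaks in each group. Of the marker genes checked, 2 of 2 for podocytes, 1 of 3 for injured tubule, 1 of 4 for immune cells and 2 of 3 for endothelium had a listed peak, and the liver gene Alb had 0 peaks.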
